A study of Mus musculus with 7 samples.

Results

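The genes described here are the 7 main genes of the mouse MHC class II pathway, H2-Aa, H2-Ab1, H2-Eb1, H2-DMa, H2-DMb1, Cd74 and Ciita, taken by symbol from the 31053 genes measured in sorted mammary tumor cells. All 7 were detected in each of the 7 single-cell libraries. The 3 tumor models of adult FVB/NJ mice gave 2 libraries each, named A and B, from separate tumors. BRCA1-null tumors arose spontaneously in K14-Cre mice with Trp53 F/F and Brca1 F/F alleles, in which Cre is driven by a basal keratin promoter. Neu tumors arose spontaneously in MMTV-Neu mice, and the tumor of Neu A also carried FIP200 floxed alleles without Cre. PyMT tumors were FVB/NJ transplants of FF99WT, a single line from an MMTV-PyMT tumor with FIP200 floxed alleles and no Cre. A single library came from 4T1, a mammary carcinoma cell line transduced with GFP and transplanted into adult BALB/C mice. No tumor was treated, all were harvested at a similar size, and all suspensions were sorted for CD24+ cells without the lineage markers CD31, CD45 and Ter119, a gate meant to keep epithelial tumor cells and remove leukocytes.

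MHC class II molecules present peptides from the endosomal route to CD4+ T cells. H2-Aa and H2-Ab1 encode the alpha and beta chains of the classical molecule I-A, and H2-Eb1 encodes the beta chain of I-E. Cd74 encodes the invariant chain, which occupies the peptide groove until the H2-DMa and H2-DMb1 products, the chains of the peptide exchange factor H2-M, help to load peptide. Ciita encodes the class II transactivator, which has no DNA-binding domain of its own and is recruited by factors bound to the X and Y boxes of class II promoters. Professional antigen-presenting cells express the set constitutively, and many other cell types, epithelial cells among them, express it after exposure to interferon gamma. FVB mice carry the H2q haplotype, which is known to make no I-E, whereas BALB/c mice carry H2d, which does. The reference used for counting is that of C57BL/6, of haplotype H2b, and how reads of the other alleles mapped was not tested. For 4T1, model, strain and MHC haplotype cannot be told apart. For PyMT, oncogene, cell line and transplantation cannot be told apart either, since both libraries came from transplants of a single line.

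All members but Cd74 and Ciita lie in the class II region of chromosome 17 of GRCm38. H2-DMa is at chr17:34119541-34139101 and H2-DMb1 at chr17:34153072-34160230, followed by H2-Ab1 at chr17:34257689-34269419, H2-Aa at chr17:34282744-34287823 on the minus strand, and H2-Eb1 at chr17:34305867-34316674. Ciita is at chr16:10480059-10528418. The annotated span of H2-DMa overlaps those of 4 other genes, and H2-Eb1, Cd74 and Ciita overlap 1 each, so reads could be shared there. RefSeq promoter windows, from 250 bases before to 50 bases after the start, were at hand for 4 members, H2-Aa, H2-Eb1, H2-DMa and H2-DMb1. Stretches of 2 of them are shown because they hold the letters of the X and Y boxes at close spacing. Capitals mark the X box core GNAAC and the Y box TGATTGG, 5′ to 3′ on the strand of the gene. H2-Aa lies on the minus strand at chr17:34287852-34287924 and H2-Eb1 on the plus strand at chr17:34305756-34305827 of GRCm38.p6.
H2-Aa: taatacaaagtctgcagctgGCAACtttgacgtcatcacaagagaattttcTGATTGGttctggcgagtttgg
H2-Eb1: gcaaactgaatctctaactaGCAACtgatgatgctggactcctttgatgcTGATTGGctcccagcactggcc
The 2 motifs were 26 bases apart in H2-Aa and 25 in H2-Eb1, and they were also 26 apart in H2-DMb1. The Y box letters, on either strand, were in 7.82% of 32851 promoter windows and the X core letters in 84.8%. An X core followed by a Y box within 15 to 40 bases, a spacing chosen after the sequences had been seen, was in 0.715% of them on either strand. On the strand of the gene, where the pairs of the members were sought, it was in 0.332%. Both H2-DMa windows held the X core letters without those of the Y box. H2-Oa, H2-Ob and H2-Eb2, other class II genes, held the pair as well. H2-DMb2 held the letters of both motifs, counted on either strand, but not as this pair on the strand of the gene. A match is a description of the letters and not of a bound site, and H2-Aa and H2-Eb1, which share the pair, differed widely in level in the PyMT libraries described next.

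After filtering for at least 1000 unique molecular identifiers (UMIs, which count captured transcripts), 500 genes and under 20% mitochondrial UMIs, 12168 of 13745 barcodes remained, from 245 in BRCA1-null A to 2308 in Neu A. Median depth ranged from 8609 UMIs per cell in Neu A to 19411 in PyMT B. BRCA1-null A stood apart by its number of cells and by its epithelial marker, since 31.5% of its cells held an Epcam UMI at 3000 UMIs per cell, against 75.3% in BRCA1-null B and 91.0% to 99.8% in the other libraries. The summed level of 5 fibroblast genes was 369 and 1698 CPM (UMIs scaled to a common total per library) in BRCA1-null A and B, and 1.55 to 31.7 CPM elsewhere, so the BRCA1-null libraries go partly against the epithelial label. Cells with a UMI of the leukocyte genes Ptprc or Tyrobp were 8.57% and 2.55% of BRCA1-null cells and between 0.154% and 1.94% of the cells of the other libraries. They are called leukocyte-marked cells here, and 12024 cells had neither transcript. The libraries shared 118 barcode sequences.

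All 7 members were highest in the 4T1 library. Among the FVB/NJ models Cd74, H2-Ab1 and H2-DMa were highest in PyMT and lowest in Neu, H2-Aa was lowest in Neu, H2-DMb1 was highest in Neu, and H2-Eb1 and Ciita overlapped. Cd74 was at 64.2 and 60.8 CPM in BRCA1-null A and B, at 408 and 460 CPM in the PyMT pair, at 7.14 and 2.44 CPM in the Neu pair and at 3517 CPM in 4T1, where the 95% Poisson interval was 3491 to 3543. The libraries of the 3 FVB/NJ models did not overlap for this gene. H2-Ab1 followed the same order, with 32.8 and 20.3 CPM (BRCA1-null A, B), 138 and 139 CPM (PyMT A, B), 2.89 and 2.08 CPM (Neu A, B) and 855 CPM (842 to 867) for 4T1. H2-Aa was at 35.8 and 17.1 CPM (BRCA1-null), 37.4 and 44.3 CPM (PyMT), 1.99 and 0.535 CPM (Neu) and 1145 CPM (1130 to 1160) for 4T1. Its level in BRCA1-null A was close to that of PyMT A, so these neighbors were not separated, and both stood above the 2 Neu libraries. Exact Poisson and binomial intervals in this text cover counting error only.

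The chain of I-E behaved differently. H2-Eb1 was at 3.05 and 1.15 CPM (BRCA1-null), 3.92 and 2.07 CPM (PyMT) and 2.44 and 0.594 CPM (Neu), so the 3 FVB/NJ models overlapped. In 4T1 it was at 1148 CPM (1133 to 1163). For each H2-Ab1 UMI there were 0.0284 H2-Eb1 UMIs in PyMT A and 0.0149 in PyMT B, but 1.34 (1.32 to 1.37) in 4T1. In the leukocyte-marked cells of BRCA1-null tumors H2-Ab1 was at 160 CPM in A and 563 CPM in B. The ratio there was 0.0381 in A and 0.0294 in B, with intervals of 0.0102 to 0.1005 and 0.0160 to 0.0498. Other FVB/NJ cells had higher ratios. In Neu A the ratio was 0.844 (0.576 to 1.23), from 54 H2-Eb1 and 64 H2-Ab1 UMIs, and in Neu B 0.286 (0.165 to 0.475). In BRCA1-null cells without Ptprc or Tyrobp UMIs it was 0.167 in A and 0.161 in B. All of these but 4T1 belong to the same strain, and the cause of the spread was not tested.

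The 2 chains of H2-M also separated. H2-DMa was at 10.8 and 8.64 CPM (BRCA1-null), 21.9 and 27.7 CPM (PyMT), 5.29 and 4.22 CPM (Neu) and 208 CPM (202 to 214) for 4T1, in the order of the classical genes. H2-DMb1 was at 16.1 and 11.5 CPM (BRCA1-null), 38.3 and 43.1 CPM (PyMT), 62.4 and 50.3 CPM (Neu) and 223 CPM (217 to 230) for 4T1. Neu, lowest for H2-Aa, H2-Ab1, H2-DMa and Cd74, was therefore highest of the FVB/NJ models for H2-DMb1, above both PyMT libraries. The ratio of H2-DMb1 to H2-DMa UMIs was 11.8 (9.77 to 14.4) in Neu A and 11.9 (10.0 to 14.3) in Neu B. In the other libraries it lay between 1.07 and 1.75. H2-DMb2, the neighboring copy of H2-DMb1, was at 0.538 to 3.21 CPM in the FVB/NJ libraries and at 43.5 CPM in 4T1. The transcripts H2-DMb1-201 and H2-DMb2-201 were identical at 75.3% of aligned positions and at 64.5% over their last 300 bases, so some reads may be shared between them.

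Ciita was scarce in every library. It had 7 and 5 UMIs in the BRCA1-null libraries (1.25 and 0.169 CPM), 2 and 38 in those of PyMT (0.11 and 1.01 CPM), and 16 and 10 in those of Neu (0.723 and 0.297 CPM). The 3 models overlapped, and libraries of 1 model lay far apart. In 4T1 it reached 8.51 CPM (7.29 to 9.88) from 172 UMIs. H2-Oa, a chain of the H2-M inhibitor H2-O, had 59 UMIs in BRCA1-null B (2.00 CPM), 62 in 4T1 (3.07 CPM), at most 5 in BRCA1-null A and PyMT, and 0 in both Neu libraries, which allows up to 0.136 and 0.0891 CPM there at 3 counts per library. H2-Ob and H2-Eb2 had at most 1 UMI in any library.

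**Figure D1:**
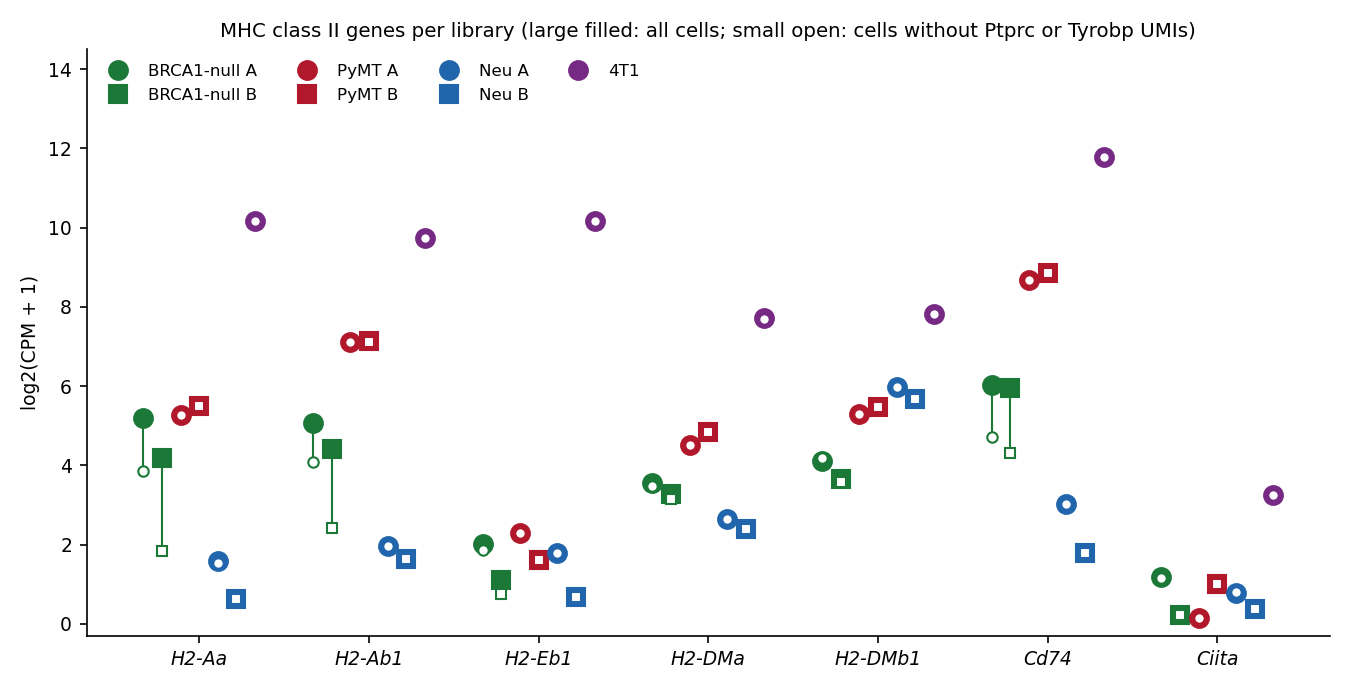
Levels of the 7 class II genes (x axis) in CPM on a log axis (y axis), with large filled points for all cells and small open points for cells without Ptprc or Tyrobp UMIs, 1 point per library. The 4T1 library lies above the others for every gene, PyMT lies above BRCA1-null and Neu for H2-Ab1, H2-DMa and Cd74, Neu is highest of the FVB/NJ libraries for H2-DMb1, and the open BRCA1-null points fall below the filled ones for H2-Aa, H2-Ab1 and Cd74.

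The sort was meant to remove CD45+ cells, and the first question is how far the class II transcripts came from leukocyte-marked cells that remained. In BRCA1-null tumors most did. Leukocyte-marked cells held 54.0% of the UMIs of the 7 genes in BRCA1-null A and 63.2% in BRCA1-null B, and the 10 cells with most class II UMIs held 55.3% and 65.8%. In these cells of BRCA1-null B Cd74 was at 1485 CPM, H2-Ab1 at 563 CPM and H2-Aa at 509 CPM. In BRCA1-null cells without these transcripts H2-Aa was at 13.4 CPM in A and 2.58 in B, H2-Ab1 at 15.8 and 4.32, and Cd74 at 25.2 and 18.8. H2-DMb1, at 17.1 and 10.9 CPM, was at nearly the same level as in all cells. RNA of other leukocyte genes remained in these BRCA1-null cells. In A and B the pan-leukocyte genes summed to 26.6 and 50.7 CPM, 10 macrophage genes to 30.1 and 15.6, and 6 B cell genes to 4.47 and 29.3. Their part in the remaining class II levels was not tested.

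In the other models the same division changed little. The share of class II UMIs in leukocyte-marked cells was 0.0597% and 0.559% (PyMT), 0.818% and 0.639% (Neu) and 2.29% (4T1). Cd74 in cells without Ptprc or Tyrobp UMIs was at 409 and 459 CPM in PyMT and at 3511 CPM in 4T1. Levels of H2-Aa in 4T1 were 1143 CPM without and 1236 CPM with the leukocyte transcripts. Markers of other cells that present antigen were counted as well. The summed level of 5 pan-leukocyte genes was 0.386 and 0.663 CPM (PyMT), 1.90 and 0.832 CPM (Neu) and 6.19 CPM (4T1), against 40.7 and 70.9 CPM (BRCA1-null). That of 10 macrophage genes was 9.99 and 10.4 CPM (PyMT), 7.64 and 2.55 CPM (Neu), 16.2 CPM (4T1) and 76.9 and 59.8 CPM (BRCA1-null). That of 8 dendritic cell genes was 5.41 and 3.45 CPM (PyMT), 0.316 and 0.119 CPM (Neu), 6.53 CPM (4T1) and 7.89 and 10.97 CPM (BRCA1-null), so it moved with the class II genes between PyMT and Neu. In the PyMT libraries most of it was Zbtb46, at 5.35 and 3.40 CPM, while Xcr1 and Clec9a were at 0 UMIs in all 7 libraries and Itgax in both PyMT libraries. Zbtb46 was higher in PyMT than in Neu by 4.79 ± 0.86 (edgeR, adjusted p = 0.0148), as was the macrophage list gene Cd68 by 4.13 ± 0.56 (adjusted p = 0.00742), and their part in the class II levels was not tested. The sum of 6 B cell genes was 205 CPM in BRCA1-null B, 5.20 in BRCA1-null A and under 1 CPM in the others. There were 250 H2-Ab1 UMIs for each UMI of the macrophage gene C1qa in PyMT A (136 to 522), 1307 in PyMT B (510 to 4797) and 213 in 4T1. In the leukocyte-marked cells of BRCA1-null A and B there were 2.28 (1.60 to 3.30) and 1.94 (1.66 to 2.28).

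Differences between the 3 FVB/NJ models were tested with edgeR's quasi-likelihood test on UMIs summed per library, with 2 libraries per model and Benjamini-Hochberg adjustment over 13950 genes. In such sums fewer positive cells and less RNA per cell cannot be told apart. Fold changes below are on the TMM scale, and the median log2 fold change over all genes was 0.11 for BRCA1-null against PyMT, 0.11 for BRCA1-null against Neu and -0.06 for PyMT against Neu. Between PyMT and Neu 4 of the 7 members were higher in PyMT, where 7.5% of all genes were higher, and none was lower, with 0 lower at an unadjusted p under 0.05, where 9.38% of all genes were lower. Cd74 differed by 6.71 ± 0.55 (log2, SE, adjusted p = 0.00264), H2-Ab1 by 5.97 ± 0.35 (adjusted p = 0.00129), H2-Aa by 5.24 ± 0.64 (adjusted p = 0.00568) and H2-DMa by 2.55 ± 0.32 (adjusted p = 0.00602). On the linear scale these were 105, 62.6, 37.9 and 5.84 times. H2-DMb1 at -0.30 ± 0.25 (adjusted p = 0.434), H2-Eb1 at 1.19 ± 0.76 (adjusted p = 0.312) and Ciita at 0.41 ± 1.14 (adjusted p = 0.830) did not pass the test. H2-DMa missed the threshold without Neu A (adjusted p = 0.0611), without Neu B (adjusted p = 0.0637) or without PyMT B (adjusted p = 0.0508).

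Between BRCA1-null and PyMT 22.4% of all genes differed, 7.94% being lower in BRCA1-null. Of the members 4 were lower and none was higher, with 0 higher at an unadjusted p under 0.05. H2-Ab1 differed by -2.78 ± 0.30 (log2, SE, adjusted p = 0.00383), Cd74 by -3.16 ± 0.46 (adjusted p = 0.00843), H2-DMb1 by -1.94 ± 0.27 (adjusted p = 0.00694) and H2-DMa by -1.73 ± 0.31 (adjusted p = 0.0144). H2-Aa at -1.04 ± 0.53 (adjusted p = 0.206), H2-Eb1 at -0.99 ± 0.79 (adjusted p = 0.406) and Ciita at -0.46 ± 1.24 (adjusted p = 0.820) did not pass. Without PyMT A or without PyMT B H2-Ab1 was the 1 member left past the threshold, and Cd74, H2-DMb1 and H2-DMa had adjusted p between 0.0508 and 0.103. In cells without Ptprc or Tyrobp UMIs, where 21.8% of 13999 genes differed and 7.76% were lower, 5 members were lower in BRCA1-null. Cd74 differed by -4.68 ± 0.50 (adjusted p = 0.00359), H2-Ab1 by -4.26 ± 0.56 (adjusted p = 0.00619) and H2-Aa by -2.86 ± 0.78 (adjusted p = 0.0422), beside H2-DMa and H2-DMb1 at -1.84 and -1.94. This count was 2 without PyMT A and 1, Cd74, without PyMT B, and the call of H2-Aa was also lost without Neu A (adjusted p = 0.0591) or Neu B (adjusted p = 0.0587).

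Between BRCA1-null and Neu 3 members were higher in BRCA1-null, where 16.3% of all genes were higher, and H2-DMb1 was lower, as were 12.8% of all genes. H2-Aa differed by 4.21 ± 0.62 (adjusted p = 0.00597), Cd74 by 3.55 ± 0.48 (adjusted p = 0.00466), H2-Ab1 by 3.19 ± 0.31 (adjusted p = 0.00241) and H2-DMb1 by -2.25 ± 0.27 (adjusted p = 0.00353). H2-DMa at 0.82 ± 0.31 had an adjusted p of 0.0885. These 4 calls were kept when any 1 library was left out. The summed pan-leukocyte, macrophage and B cell genes given above moved with these levels, and the difference was smaller without the cells that carry leukocyte transcripts. In cells without Ptprc or Tyrobp UMIs, where 16.2% of genes were higher, Cd74 differed by 2.03 ± 0.46 (adjusted p = 0.0196), while H2-Aa at 2.42 ± 0.81 (adjusted p = 0.0628) and H2-Ab1 at 1.70 ± 0.53 (adjusted p = 0.0509) missed the threshold. With the replicate letter as a block H2-Aa passed at 2.35 (adjusted p = 0.0431), and without BRCA1-null B both passed, at 3.17 (adjusted p = 0.0108) and 2.31 (adjusted p = 0.00336). Cd74 lost its call without Neu B (1.47, adjusted p = 0.0860), without PyMT A (adjusted p = 0.0514) or without PyMT B (adjusted p = 0.0515), and also when every cell with a UMI of 38 leukocyte genes was removed (1.05, adjusted p = 0.162). H2-DMb1 stayed lower at -2.24 ± 0.29 (adjusted p = 0.00378), where 12.7% of genes were lower. H2-Oa was higher in BRCA1-null in these cells (adjusted p = 0.0191), with no fold given since both Neu libraries were at 0. This call rests mostly on BRCA1-null B, with 59 H2-Oa UMIs in these cells against 2 in BRCA1-null A. For PyMT against Neu in these cells the same 4 members as in all cells were higher, where 7.64% of genes were higher and 9.51% lower, but H2-Aa lost its call when any 1 of the 4 PyMT and Neu libraries was left out (adjusted p of 0.0632 to 0.0804), and H2-DMa without Neu A, Neu B or PyMT B (0.0532 to 0.0632).

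To compare cells at equal depth, each cell was thinned to 3000 UMIs and shallower cells were left out, between 23 and 233 per library. At this depth 98.4% of 4T1 cells held a Cd74 UMI, 28.8% and 36.2% of PyMT A and B cells, 8.11% and 3.47% of BRCA1-null cells and 1.64% and 0.565% of Neu cells. H2-Ab1 was seen in 81.9% of 4T1 cells, 24.0% and 26.4% of PyMT, 6.76% and 1.58% of BRCA1-null and 0.675% and 0.359% of Neu cells. H2-Aa was seen in 87.7% of 4T1, 7.25% and 9.42% of PyMT, 8.56% and 0.947% of BRCA1-null and 0.578% and 0.0513% of Neu cells. Each of these 3 genes was thus seen in most 4T1 cells and in a minority of PyMT cells. H2-DMb1 was seen in 45.7% of 4T1, 9.68% and 12.8% of PyMT and 16.1% and 12.9% of Neu cells, and H2-Eb1 in 87.6% of 4T1 cells but in at most 1.03% of cells of any FVB/NJ library. Ciita was seen in 29 of 1685 4T1 cells (1.72%, 1.16 to 2.46), in 4 of 1794 PyMT B cells, in 5 of 2075 Neu A cells, in 2 of 1948 Neu B cells and in 1 of 1901 BRCA1-null B cells. It was seen in 0 of 1849 PyMT A cells and 0 of 222 BRCA1-null A cells, which allows up to 0.162% and 1.35% of cells with a Ciita UMI at this depth and sets no limit on cells that express the gene. Without thinning 2 PyMT A cells and 7 BRCA1-null A cells held one. No cell type was fixed as one that lacks these genes, so no background share can be given, and free RNA can add single UMIs. Without thinning, 43.1% of PyMT A cells and 66.9% of PyMT B cells held an H2-Ab1 UMI, at median depths of 9241 and 19411 UMIs.

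Within PyMT and 4T1 the cells differed in amount. Over cells without Ptprc or Tyrobp UMIs thinned to 3000 UMIs, the median 4T1 cell held 20 UMIs of the 7 genes, with 7 at the 10th and 38 at the 90th percentile and a maximum of 71, and 8 of 1652 cells held none. In PyMT A 975 of 1846 cells held none, in PyMT B 817 of 1788. The maxima there were 48 and 58 UMIs. The 185 PyMT A and 179 PyMT B cells with most class II UMIs held 65% and 57.4% of them, against 20.99% in the top 165 cells of 4T1. At least 4 different members were seen in 80.9% of 4T1 cells (79.0 to 82.8), in 1.95% and 2.80% of PyMT cells and in no BRCA1-null or Neu A cell.

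**Figure D2:**
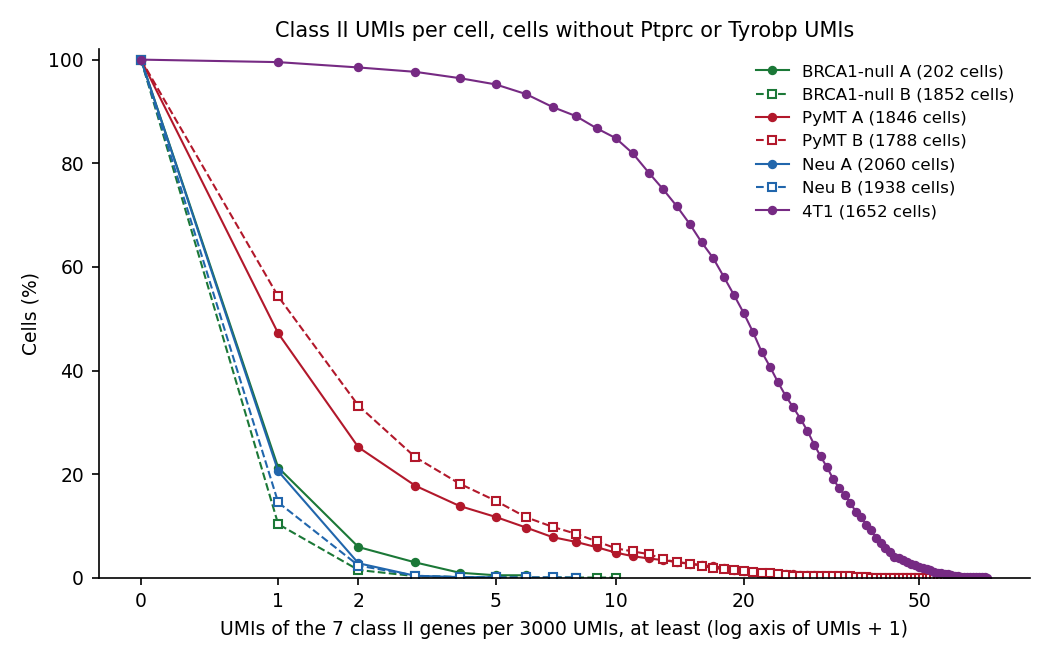
Percent of cells without Ptprc or Tyrobp UMIs (y axis) that held at least the given number of UMIs of the 7 class II genes after thinning to 3000 UMIs (x axis, log of UMIs + 1), 1 line per library. The 4T1 line stays above 80% up to 10 UMIs, the PyMT lines pass 2 UMIs at 25.2% and 33.2% and reach beyond 40, and those of BRCA1-null and Neu fall below 6% at 2 UMIs.

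The members were found together in the same PyMT cells. H2-Aa was seen in 20.3% (16.9 to 23.9) of the 533 PyMT A cells with a Cd74 UMI and in 1.98% (1.30 to 2.89) of the 1313 without. In PyMT B the shares were 22.3% of 646 cells and 2.01% of 1142. H2-Ab1 was seen in 47.7% against 14.2% of PyMT A cells and 45.4% against 15.6% of PyMT B cells. H2-DMa followed with 13.1% against 2.89% and 13.9% against 4.03%. H2-DMb1 was less tied to Cd74, at 13.9% against 7.92% and 16.6% against 10.7%. The exact binomial intervals of cells with and without Cd74 did not overlap for these 4 genes in either library. In Neu the H2-DMb1 share was 17.6% in the 34 Neu A cells with Cd74 and 16.1% in the 2026 without. In Neu B it was 36.4% (10.9 to 69.2) of 11 cells against 12.7%, so no tie of H2-DMb1 was detectable at these numbers. H2-Ab1 was seen in 8.82% (1.86 to 23.7) of Neu A cells with Cd74 against 0.543% without. In Neu B it was 27.3% (6.02 to 61.0) against 0.208%, with 3 cells holding both genes in each library. In BRCA1-null A H2-Aa was seen in 45.5% (16.7 to 76.6) of 11 cells with Cd74 against 4.71%. In BRCA1-null B it was 5.66% of 53 cells against 0.389%. H2-Ab1 in BRCA1-null A went the other way, at 0% against 4.71%. In 4T1 27 cells lacked Cd74 at this depth, and H2-Aa was seen in 25.9% of them (11.1 to 46.3) against 88.6% of the 1625 others.

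**Figure D3:**
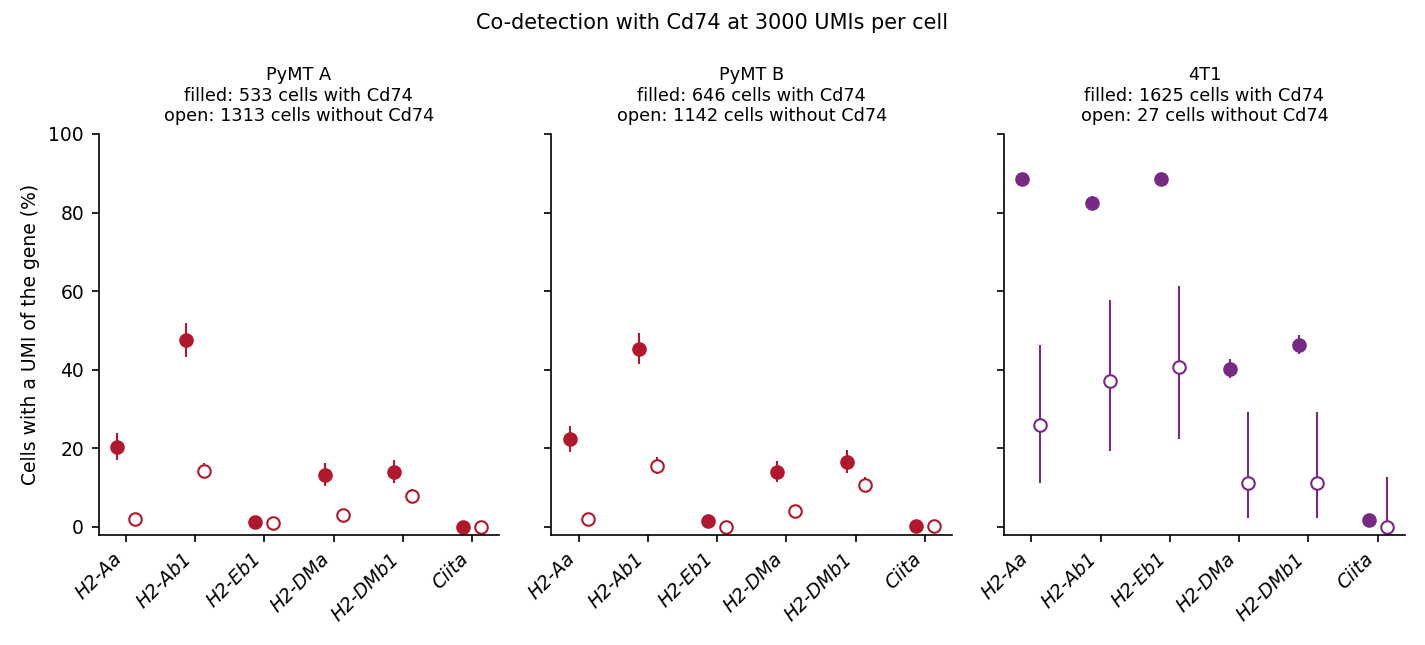
Percent of cells with a UMI of each gene (y axis) among cells with a Cd74 UMI (filled) and without one (open), at 3000 UMIs per cell, for PyMT A, PyMT B and 4T1, with exact 95% binomial intervals. In both PyMT libraries the filled points for H2-Aa, H2-Ab1, H2-DMa and H2-DMb1 lie above the open ones, with the narrowest gap for H2-DMb1.

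The proportion between the chains of I-A was not the same in all libraries. For each H2-Ab1 UMI there were 0.271 (0.249 to 0.295) H2-Aa UMIs in PyMT A and 0.319 (0.302 to 0.337) in PyMT B. In the leukocyte-marked cells of BRCA1-null tumors, of the same strain, there were 1.28 (0.981 to 1.66) in A and 0.903 (0.791 to 1.03) in B, and in 4T1 there were 1.34. The Cd74 to H2-Ab1 ratio varied less among these cells, with 2.96 and 3.32 in PyMT, 2.23 and 2.64 in the leukocyte-marked BRCA1-null cells and 4.12 in 4T1.

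The pathway around the members was read from lists of genes. Of the 7 factors that bind class II promoters, none passed in PyMT against Neu or in BRCA1-null against PyMT, with 1 and 0 at an unadjusted p under 0.05, and Nfya, a subunit of the Y box factor NF-Y, was higher in BRCA1-null than in Neu by 1.45 ± 0.38 (adjusted p = 0.0306). Rfx5, a subunit of the X box factor, was at 2.73 to 4.66 CPM in all 7 libraries. Among 7 measured genes of peptide processing, Ctss, the protease that trims the invariant chain, was higher than in Neu in both PyMT (2.88 ± 0.63, adjusted p = 0.0269) and BRCA1-null (3.12 ± 0.64, adjusted p = 0.0150). Ctsh and Ctsd were lower in BRCA1-null than in both other models, and Ctsz, at -3.60 ± 0.50, was lower in PyMT than in Neu (adjusted p = 0.00789) and higher in BRCA1-null than in PyMT.

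Genes of the interferon gamma route differed between models, in part in the same direction as the members. In PyMT against Neu, where 7.5% of all genes were higher, 3 of 7 pathway genes were, namely the receptor chains Ifngr1 (1.70 ± 0.36, adjusted p = 0.0245) and Ifngr2 (1.93 ± 0.40, adjusted p = 0.0225) and the feedback inhibitor Socs1 (2.67 ± 0.45, adjusted p = 0.0124). Of 13 response genes Gbp2 (1.61, adjusted p = 0.0431) and Ubd (3.24, adjusted p = 0.0481) were higher. The chemokines Cxcl9 and Cxcl10 were higher in BRCA1-null than in PyMT, by 4.45 ± 0.87 (adjusted p = 0.0172) and 6.43 ± 0.85 (adjusted p = 0.00650), opposite in direction to Cd74 and H2-Ab1, and Irf8, which leukocytes also express, was higher there by 5.02 ± 1.08 (adjusted p = 0.0223). In the comparison of BRCA1-null with Neu, where 16.3% of all genes were higher, 4 of 13 response genes were, these 3 and Ubd. Pathway genes in that comparison were higher for 3 of 7 and lower for 0. Between BRCA1-null and PyMT 2 pathway genes were higher in BRCA1-null and 1 was lower. Irf1, a pathway gene, was at 26.9 and 32.9 CPM (BRCA1-null), 4.42 and 5.89 CPM (PyMT) and 31.8 and 9.45 CPM (Neu). It was thus lowest in PyMT, where Cd74 and H2-Ab1 were highest of the FVB/NJ models. Of 9 genes of MHC class I presentation 4 were lower in BRCA1-null than in PyMT, beside 7.94% of all genes, H2-D1 at -1.69, H2-K1 at -1.70, B2m at -1.68 and Psmb8 at -1.22 on the log2 scale, and 1, Psmb8, was higher in PyMT than in Neu (1.46 ± 0.35, adjusted p = 0.0359). The median log2 fold change of the list was -1.10 in the first of these and 0.54 in the second.

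In 4T1 the same lists were at their highest of the series, in a single library. The 13 response genes summed to 1156 CPM, against 62.2 to 319 CPM in the others, and the 7 pathway genes to 532 CPM against 181 to 254. Cxcl9 was at 153 CPM in 4T1 and at most 9.42 elsewhere, Irf8 at 82.8 and at most 15.8, Socs1 at 57.5 and at most 18.6, and Ubd at 60.9 and at most 6.71. B2m was at 6943 CPM in 4T1 and at 1193 to 4487 elsewhere. Class II promoter factors, at 131 CPM in sum, lay within the range of 96.0 to 165 CPM of the FVB/NJ libraries. Of 4 tested costimulation and checkpoint genes Cd40 was higher in BRCA1-null than in PyMT and in Neu, Cd274 than in Neu, and none passed between PyMT and Neu, with 0 at an unadjusted p under 0.05. The 6 genes of that list summed to 19.3 CPM in 4T1 and 0.386 to 8.60 elsewhere, with Cd80 at 0 and Cd86 at 1 UMI in 4T1, Cd40 at 7.47 CPM and Cd274, the PD-L1 gene, at 11.2 CPM.

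Over the 7 libraries, the genes whose log2(CPM + 1) ran most like the mean of the members, among 7234 genes of at least 10 CPM on average, were Ubp1 (r = 0.989), Mapk6 (r = 0.983), Npepps (r = 0.982), Prkacb (r = 0.981) and Cdk17 (r = 0.980). Each was highest in 4T1, Ubp1 for example at 59.9 CPM against 12.5 to 26.7 elsewhere, and these are descriptions over 7 points, of which 4T1 is the extreme. Irf1 had r = 0.253, C1qa 0.126 and Tyrobp -0.023.

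Cells of the same tumor were then compared by their class II content. Within each FVB/NJ library, cells without Ptprc or Tyrobp UMIs that held at least 2 UMIs of the 7 members at 3000 UMIs were called class II-positive and those with 0 class II-zero. The positive cells numbered 12 and 28 (BRCA1-null A, B), 465 and 594 (PyMT A, B) and 58 and 46 (Neu A, B), against 159, 1660, 975, 817, 1636 and 1656 zero cells. In PyMT 406 and 377 cells held exactly 1 such UMI and entered neither class. Thinned counts were summed per class and library and tested with edgeR with the library as a block and the members left out. Of 7670 genes 18 were higher in positive cells (0.235%) and 6 lower (0.0782%), with 384 at an unadjusted p under 0.05. DESeq2 called 3, H2-Q7, H2-D1 and B2m, all of them higher.

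Genes of class I presentation were higher in part. Of 9 genes tested 6 passed, with a list median of 0.50 on the log2 scale against -0.04 over all genes. H2-D1 was at 3656 CPM in positive and 2310 in zero cells of PyMT A, 4134 and 2766 in PyMT B, 2861 and 1126 in BRCA1-null A, 2321 and 1265 in BRCA1-null B, 3580 and 3379 in Neu A, and 3051 and 2087 in Neu B. It was higher in 6 of 6 libraries, with a fitted log2 fold change of 0.52 ± 0.11 (adjusted p = 0.00212). B2m, the light chain of class I, was at 4047 and 2698 CPM in PyMT A and 5813 and 3970 in PyMT B, and was higher in 6 of 6 libraries (0.50 ± 0.11, adjusted p = 0.00534). H2-K1 (0.43 ± 0.11, adjusted p = 0.0498), Psmb8 (0.49 ± 0.12, adjusted p = 0.0301) and H2-Q4 (0.59 ± 0.11, adjusted p = 0.000191) were likewise higher in 6 of 6. H2-Q7 differed by 1.00 ± 0.13 (adjusted p = 4.88e-11), was higher in 6 of 6 libraries and passed in 18 of 18 alternative settings, against 13 for H2-D1, 11 for B2m, 9 for Psmb8 and 7 for H2-K1. Without cells that held any of 38 leukocyte genes, a setting in which BRCA1-null A had too few positive cells, H2-D1 (0.36, adjusted p = 0.437), B2m (0.44, adjusted p = 0.0768), Psmb8 (0.41, adjusted p = 0.0559) and H2-K1 (0.38, adjusted p = 0.275) missed the threshold. Class I genes are near-identical copies of each other, so reads may be split between them, and which copy rose is uncertain. The immunoproteasome genes Psmb9 and Psmb10 were higher by 0.79 ± 0.15 and 0.63 ± 0.15, in 5 and 3 of 6 libraries.

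Of 6 tested interferon gamma response genes 3 were higher, Iigp1, Gbp2 and Igtp. Iigp1, an interferon gamma-induced GTPase, was at 53.8 and 13.0 CPM in positive and zero cells of PyMT A and at 84.2 and 41.2 in PyMT B, while in Neu A and B it was at 86.2 and 96.0 and at 21.7 and 26.0. Its fitted difference was 1.16 ± 0.16 (adjusted p = 2.57e-10). Gbp2 (1.10 ± 0.17, adjusted p = 1.85e-07) and Igtp (0.79 ± 0.20, adjusted p = 0.0378) were higher in 5 of 6 libraries. AW112010 and Iigp1 passed in 17 and 16 of 18 alternative settings, Gbp2 in 14 and Igtp in 8. None of 6 pathway genes passed, with 1 at an unadjusted p under 0.05. The largest difference was that of AW112010, at 1.67 ± 0.19 (adjusted p = 4.00e-14), with 53.8 and 24.96 CPM in PyMT A and 64.0 and 23.3 in PyMT B. Its widest gap was in BRCA1-null A, at 1083 and 71.3 CPM, from 12 positive cells. In both Neu libraries positive cells were at 0 CPM, against 4.69 and 0.201 in zero cells. With the PyMT libraries alone the log2 fold change was 1.27. None of 5 promoter factors or 6 peptide processing genes passed, with 0 and 1 at an unadjusted p under 0.05.

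Other genes that passed were higher for Ccl5, C130026I21Rik, Pigr, Lao1, H2-T22 and H2-T23 and lower for Aldh1a3, Rsad2, Egr1, Apoe, Dcpp1 and Gpx3. Aldh1a3, a luminal progenitor gene, was at 122 and 195 CPM in positive and zero cells of PyMT A and at 48.3 and 119 in PyMT B (-0.92 ± 0.15, adjusted p = 7.89e-07). Rsad2, an antiviral gene induced by type I interferon, was at 19.4 and 29.1 CPM and at 66.8 and 137 in the PyMT libraries (-0.89 ± 0.19, adjusted p = 0.00148). None of 9 epithelial genes passed, with 1 at an unadjusted p under 0.05. Ccl5, at 1.27 ± 0.25, turned to -0.20 without BRCA1-null B, where it was at 500 CPM in positive cells and 27.5 in zero cells. Without PyMT A 6 genes were higher and 3 lower, and without PyMT B 9 and 3.

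Positive PyMT cells carried epithelial transcripts. After thinning, Epcam was found in 99.6% and 99.5% of positive PyMT cells and Krt8 in 100.0% and 99.3%. Ptprc and Tyrobp are at 0 by the choice of cells. Of the other pan-leukocyte genes there was 1 UMI over all 465 positive cells of PyMT A and 0 over the 594 of PyMT B. Their 10 macrophage genes summed to 9.32 and 11.2 CPM, against 12.0 and 8.98 in zero cells. Their 8 dendritic cell genes summed to 7.89 and 3.93 CPM, from 11 and 7 UMIs of 1 gene in each library, against 5.81 and 1.22 CPM in zero cells, higher in both libraries. Their median depths were 9776 and 19318 UMIs against 9307 and 20028. Of the wider list of 38 leukocyte genes a UMI was found, without thinning, in 31.8% and 47.3% of positive and 25.9% and 40.9% of zero PyMT cells. With all such cells removed 12 genes were higher and 2 lower. In BRCA1-null the 12 and 28 positive cells still held 139 and 202 CPM of pan-leukocyte genes against 16.8 and 77.7 in zero cells, and 194 and 47.6 CPM of macrophage genes against 33.5 and 14.46, whose part in the comparison was not tested. In Neu 82.8% and 93.5% of positive cells held an H2-DMb1 UMI, so that there the class was mostly set by this gene. With only the 2 PyMT libraries, an alternative added after seeing the data that leaves 1 residual degree of freedom, 41 of 8260 genes were higher and 28 lower, and 21 of the 24 genes above were among them. With classes set by H2-Aa, H2-Ab1, H2-Eb1 and Cd74 alone, also added later, 21 were higher and 14 lower, with 18 shared.

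**Figure D4:**
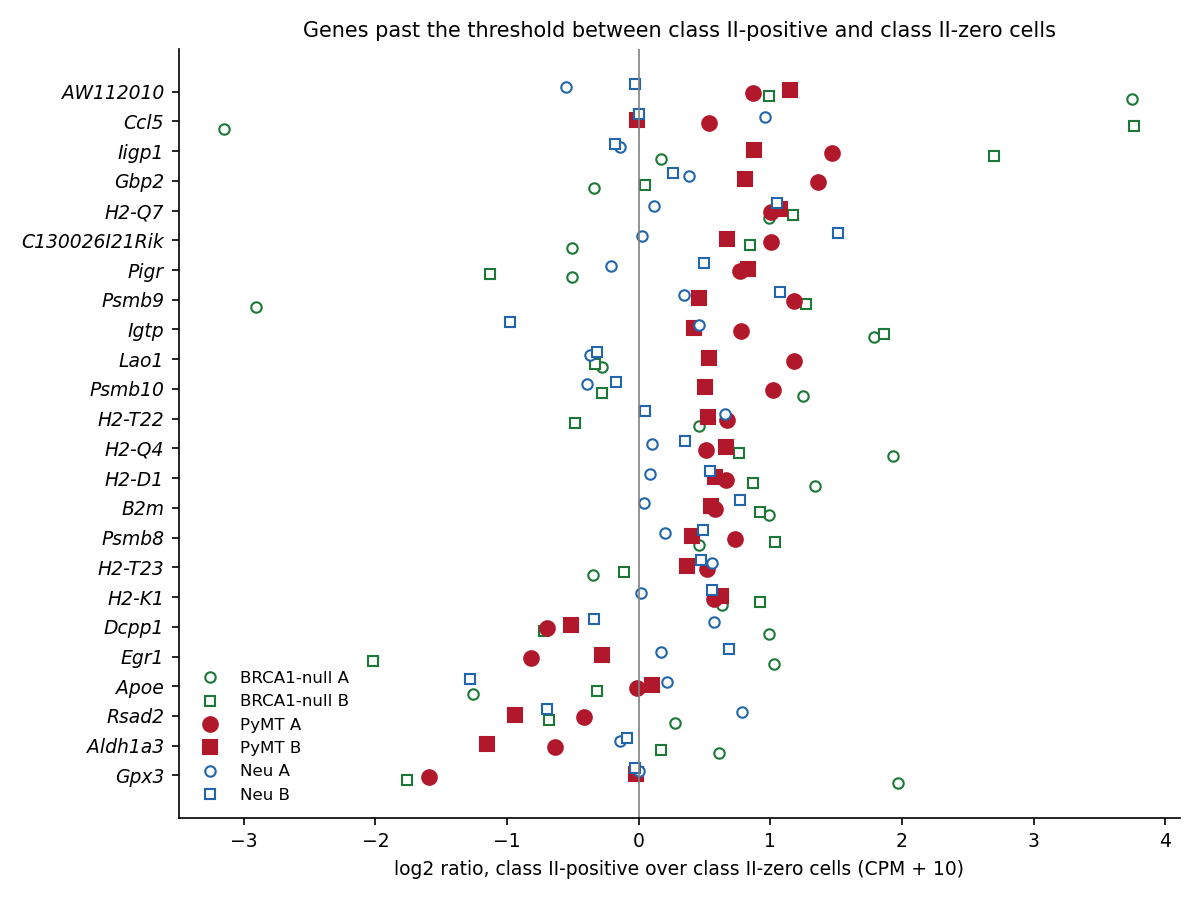
Log2 ratio of CPM, with 10 CPM added, between class II-positive and class II-zero cells (x axis) for the 24 genes that passed the test (y axis), 1 point per FVB/NJ library. For H2-Q7, H2-Q4, H2-D1, B2m, Psmb8 and H2-K1 all 6 points lie to the right of 0, while those of Ccl5, AW112010 and Psmb9 spread widely through the BRCA1-null libraries, which held 12 and 28 positive cells.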

How the data were processed

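Single cells of 7 sorted tumors were measured with the 10x Chromium 3' version 2 kit. Values as deposited are unnormalized UMI counts, which the authors obtained by running Cell Ranger on the prebuilt mm10 reference. The submitters' processing notes name Cell Ranger 2.2.0 (libraries A and 4T1) and 3.0.2 (libraries B), while each matrix header names 3.0.2, and no STAR version is given in the sources used here. Cells with at least 1000 UMIs, 500 genes and under 20% mitochondrial UMIs were kept, which held 5578911 to 37693300 UMIs per library. Gene positions are from GENCODE M21 (GRCm38) and promoter sequences from RefSeq (GRCm38.p6). The list genes Ifi30, Cxcl11 and H2-Ea-ps were not analysed here.

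Library sums of UMIs were compared by the quasi-likelihood test of edgeR 4.0.16 in R 4.3.3, after filterByExpr and TMM scaling, with Benjamini-Hochberg adjustment and a threshold of 0.05. The 4T1 library entered no test, having no replicate. Levels are plain CPM. Class comparisons used libraries with at least 10 cells per class and counts thinned to 3000 UMIs. Replicates are separate tumors, 2 per model, and those of PyMT are transplants of a single line. For comparisons of models the spread was estimated jointly over all 6 libraries of the 3 models, with 3 residual degrees of freedom. In the class comparison it was the spread left after the library block, with 5 residual degrees of freedom. Letters A and B stand for sequencing batches in the study's methods and so pair the libraries. The correlation of deviations B minus A over 7113 genes was 0.033 between BRCA1-null and PyMT, 0.142 between Neu and BRCA1-null, and 0.268 for the pair of PyMT with Neu. Scrublet (scanpy 1.11.5) marked 60 of 12168 cells, too few to serve as a doublet check, so doublets were kept. In simulated data with 16-fold changes 100% of genes were called for BRCA1-null against PyMT, and 60% of those raised 4-fold.

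The members and gene lists were chosen with earlier results of these data known. Genes named are the members, other class II genes, in each list the 4 of lowest adjusted p, up to 10 per direction for the class comparison (at least 20 CPM and the same direction in every library), and the 5 genes most like the members. Class genes outside this rule, the immunoproteasome genes, Ccl5 and the others that passed, and the 4T1 levels, were named after their values had been seen. Alternatives were DESeq2 1.42.0, its size factors, no filter on low counts, the study's cell filter, a 10% mitochondrial limit, every barcode, doublets removed, the replicate block, each library left out, other depths, seeds and class limits.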

Additional observations from a re-analysis of the deposited data

Results flagged for a closer look

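For 8 genes that passed the test between class II-positive and class II-zero cells, both libraries of a model moved one way and both libraries of another model the opposite way. The differences below are between the mean log2 ratios of positive to zero cells, with 1 CPM added, of the 2 models named, and none of them was tested. AW112010 was higher in positive cells of BRCA1-null and PyMT and lower in those of Neu, and the models differed by 4.03 (BRCA1-null against Neu) and 2.64 (PyMT against Neu). Iigp1 moved the same way, with 1.78 and 1.69. Lao1 was higher in positive cells of PyMT alone, by 2.70 more than in BRCA1-null and 1.55 more than in Neu. Pigr differed by 3.98 between PyMT and BRCA1-null, and Psmb10 by 1.22 between PyMT and Neu. H2-T23 was higher in positive cells of PyMT and Neu and lower in those of BRCA1-null, by 0.734 and 0.794. Aldh1a3 was lower in positive cells of PyMT and Neu and higher in those of BRCA1-null, by 1.53 and 1.40, and Egr1 differed by 1.26 between Neu, where it was higher, and PyMT. The BRCA1-null and Neu values rest on 12 to 58 positive cells per library, and AW112010 and Aldh1a3 had no UMI in the positive cells of either Neu library. Lao1 and Pigr had no UMI in the positive cells of either BRCA1-null library. In the zero cells of BRCA1-null A and B Lao1 was at only 2.10 and 2.61 CPM and Pigr at 4.19 and 11.8 CPM. The size of these differences therefore depends on the 1 CPM added.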

How the results depend on the processing

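The depth of single cells limits what can be said of Ciita, H2-Eb1 in FVB/NJ and the Neu classes, and 2 tumors per model limit every test. Leaving out 1 library gave 250 to 3818 genes called for BRCA1-null against PyMT (1 to 4 members lower), 857 to 4515 for BRCA1-null against Neu and 292 to 4010 for PyMT against Neu (3 to 4 members higher). In cells without Ptprc or Tyrobp UMIs the ranges were 188 to 3639 (1 to 5 members lower), 809 to 4403 (0 to 3 members higher) and 289 to 3987 (2 to 4 higher), and for the class comparison 6 to 24 genes higher and 3 to 11 lower. Without a filter on low counts 4709 genes (4609 without leukocyte-marked cells) were called for BRCA1-null against PyMT and 3583 for PyMT against Neu, against 3125, 3056 and 2355. For BRCA1-null against Neu in cells without Ptprc or Tyrobp UMIs, 1 member was higher in the reported fit, but 2 with DESeq2 size factors, with the replicate block or with the study's cell filter, 3 with DESeq2 or without the count filter, and 0 when cells with any leukocyte gene were removed. The block changed no other call of a member. In the class comparison DESeq2 called 3 higher and 0 lower, a limit of 1 UMI gave 6 and 2, and 1500 UMIs gave 6 higher. Lower genes were 10 without the count filter, 2 without cells with any leukocyte gene and 14 with classes from H2-Aa, H2-Ab1, H2-Eb1 and Cd74. The PyMT libraries alone gave 41 and 28. The causes were not tested.

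Log2 fold changes reversed in 25 of 1002 cases, none of them for H2-Aa, H2-Ab1, H2-DMa, H2-DMb1 or Cd74. Ciita turned, for BRCA1-null against PyMT, to 0.49 without BRCA1-null B and 1.97 without PyMT B, in a range from -2.10 with 1 library left out (0.45 and 1.92, from -2.06, without leukocyte-marked cells). For BRCA1-null against Neu it turned to 0.15 with DESeq2, 0.98 without BRCA1-null B, 0.64 without Neu A, 0.015 without PyMT B and 0.0053 at the 10% mitochondrial limit, and in cells without Ptprc or Tyrobp UMIs to 0.097, 0.93 and 0.57 with the first 3 of these. The lowest values with 1 library left out were -1.62 and -1.58 in the 2 sets of cells. For PyMT against Neu it turned to -0.077 without Neu B and -1.96 without PyMT B in both sets of cells, where the highest value was 1.18. H2-Eb1 for BRCA1-null against Neu turned to -0.43 without BRCA1-null A and -0.47 without Neu B, in a range up to 1.38, and in the cells without leukocyte transcripts to 0.50 without BRCA1-null B and 0.98 without Neu A, in a range from -1.16. In the class comparison Gpx3 turned to 0.25 with DESeq2 and 0.73 at 1 UMI, Apoe to 0.51 with all cells and 0.084 with PyMT alone, and Ccl5 to -0.20 without BRCA1-null B, where the highest value with 1 library left out was 2.44.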
